A study of Rattus norvegicus with 192 samples.

Results

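The 10 genes described here encode subunits of the AMPA and NMDA types of ionotropic glutamate receptor: Gria1, Gria2, Gria3 and Gria4 for AMPA receptors and Grin1, Grin2a, Grin2b, Grin2c, Grin2d and Grin3a for NMDA receptors. A further NMDA receptor gene, Grin3b, is not among them and is counted with the related genes. They were taken by symbol from a table of 38354 genes, and all 10 were found. Their RNA was measured by polyA RNA sequencing in tissue labelled as nucleus accumbens core from outbred heterogeneous stock rats, and the table used here holds 1 library per rat identifier. Levels are given as CPM, the expected count of a gene scaled to a library total of 1000000. Library totals, in units of 1000000 expected counts, ran from 14.6 to 61.2.

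The labels name no treatment, sex, age, dissection date or sequencing batch, so the one division they give is the form of the rat identifier. It is all digits in 67 libraries (numeric label) and starts with E21 in 77 (E21 label). In 12 further libraries the submitters had resolved a genotype mismatch by replacing a numbered unknown label with an E21 identifier (corrected E21 label). The remaining 3 are 2 libraries whose identifier starts with AA1 and 1 corrected to another form. A further 33 of the 192 samples of the series were not analysed here. Nothing in the labels says how the rats relate to each other, so p-values below measure only the spread between libraries.

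Fast excitatory transmission runs through AMPA receptors, tetramers whose permeability to calcium is set by whether the edited GluA2 subunit, the product of Gria2, is present. NMDA receptors pair the obligatory GluN1 subunit (Grin1) with GluN2 subunits (Grin2a to Grin2d), which set channel kinetics and magnesium block, or with GluN3 subunits (Grin3a), which lower calcium permeability. Medium spiny neurons, the main cells of the accumbens, receive glutamate from cortex, hippocampus, amygdala and thalamus through these receptors.

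The tissue label was checked against marker genes first. Drd1, the D1 dopamine receptor of medium spiny neurons, was between 154 and 441 CPM in 147 libraries. It was at most 20.0 CPM in the other 12, so no library lay near the limit of 100 CPM that defines the sets. Th, the rate-limiting enzyme of dopamine synthesis, was between 630 and 2107 CPM in 11 of those 12 libraries and at most 10.7 CPM elsewhere. In these 11 libraries the dopamine transporter Slc6a3 was between 236 and 1088 CPM, while Adora2a, the adenosine receptor of indirect-pathway medium spiny neurons, was between 3.45 and 11.1 CPM. The markers of these 11 libraries go against the tissue label, and they are described apart, as the Th libraries, from the 147 Drd1 libraries. Of the Th libraries, 10 have a numeric label and 1 an E21 label. The last library, with a numeric label, had neither marker at 100 CPM and had 1993 CPM of Slc17a7, which cortical neurons use to load glutamate into vesicles.

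In the Drd1 libraries all 10 subunits were detected in every library. Gria1, on chromosome 10 from 41710540 to 42030105 (GRCr8, plus strand), had a level of 282 CPM in the lowest library, a median of 474 and a highest value of 597. Gria2, on chromosome 2 from 168247490 to 168367616 (minus strand), ran from 294 through a median of 502 to 680 CPM. Gria3, on chromosome X from 125103975 to 125369690 (plus strand), ran from 90.8 through 162 to 232 CPM. The AMPA subunit Gria4, on chromosome 8 from 9845421 to 10320021 (minus strand), had a lowest level of 57.2, a median of 92.1 and a highest of 122 CPM. The highest library held 2.12, 2.31, 2.56 and 2.13 times the lowest for Gria1, Gria2, Gria3 and Gria4, respectively. Levels are not compared between genes, because they are not scaled by transcript length.

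Among the NMDA subunits, the obligatory Grin1, on chromosome 3 from 28501836 to 28528754 (minus strand), ran from 301 through a median of 465 to 580 CPM. The interval between its lowest and highest library was the narrowest of the 10 genes, at 1.92-fold. Grin2a, whose GluN2A product prevails at mature synapses, lies on chromosome 10 from 6136458 to 6560003 (plus strand) and ran from 45.4 through 143 to 215 CPM, a 4.73-fold interval. Grin2b, on chromosome 4 from 170297811 to 170775420 (minus strand), encodes the subunit that dominates early in development, and ran from 113 through 280 to 470 CPM, a 4.17-fold interval. Both GluN2 genes therefore varied over a wider interval than any AMPA gene.

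The remaining GluN2 genes and Grin3a were the other members. Grin2c, known from cerebellar granule cells and also from astrocytes, lies on chromosome 10 from 100987410 to 101006064 (minus strand) and ran from 36.8 through 65.7 to 99.2 CPM. Grin2d, known from interneurons and from midbrain and diencephalon, lies on chromosome 1 from 105443317 to 105483400 (minus strand) and ran from 4.33 through 9.27 to 17.9 CPM. The GluN3 gene Grin3a, on chromosome 5 from 68802333 to 69001880 (minus strand), ran from 24.0 through 41.1 to 61.2 CPM.

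The promoter of Grin1 is shown because Grin1 is the subunit that every NMDA receptor contains, and because its stretch in the RefSeq promoter table (GRCr8) lies wholly upstream of the annotated start. The 250 bases on chromosome 3 from 28528755 to 28529004, read on the minus strand towards the gene, are as follows, with each match to TGACG or its reverse complement, the shorter form of the cyclic AMP response element, in capitals.
Grin1: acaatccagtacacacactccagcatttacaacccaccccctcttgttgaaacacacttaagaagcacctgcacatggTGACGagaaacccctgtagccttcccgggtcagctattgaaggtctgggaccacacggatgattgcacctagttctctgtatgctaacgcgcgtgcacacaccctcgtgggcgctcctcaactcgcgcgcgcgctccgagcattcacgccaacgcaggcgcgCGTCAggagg
This stretch held 2 such matches, and 18.2% of the 33469 promoters in the table held at least 1 in the same 250 bases. Neither the full element TGACGTCA (in 1.59% of promoters), the GC box GGGCGG (30.5%), the EGR site GCGNGGGCG (4.29%), the E-box CACGTG (5.59%) nor TTCAGCACC, part of the element bound by the repressor REST (0.305%), occurred in it on either strand. Its GC content was 57.6%, against a median of 51.2% over the table. Promoters of Gria4, Grin2c, Grin2d and Grin3a were also in the table and are not printed, because they overlap the annotated gene.

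**Figure D1:**
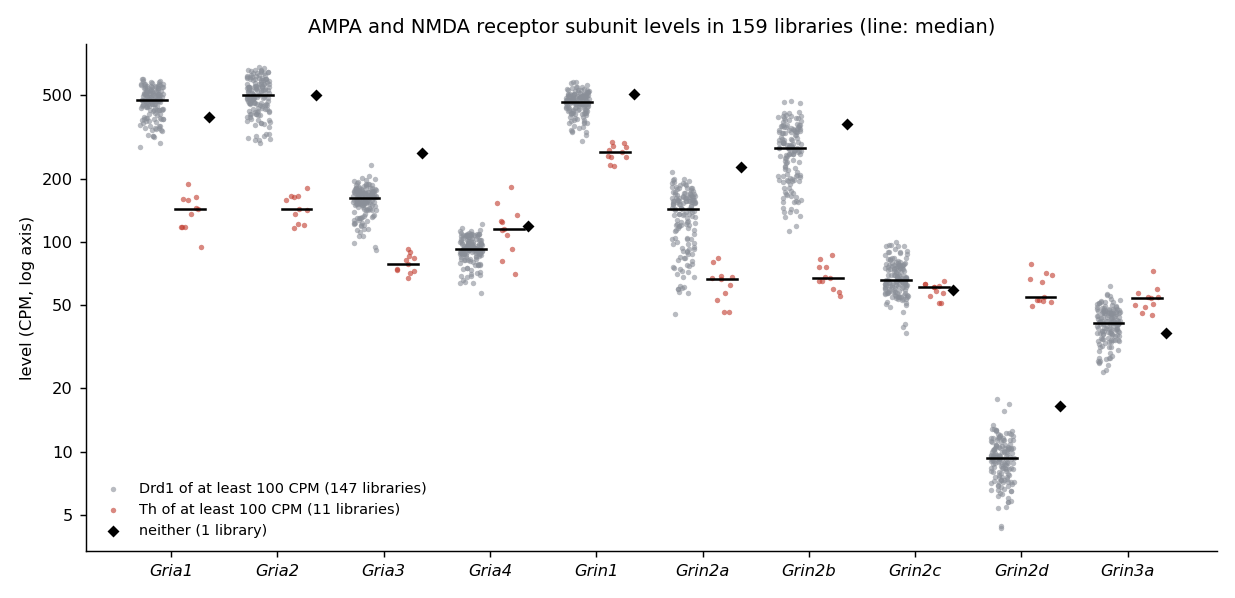
Level of each subunit gene in CPM (log axis) in each library (147 Drd1, 11 Th and 1 with neither), with a line at the median of each set. The Th libraries lie below every Drd1 library for Gria1, Gria2, Grin1 and Grin2b and above every one for Grin2d.

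In the 11 Th libraries, the AMPA subunits Gria1 and Gria2 were several-fold lower than in the Drd1 libraries, Grin2b was lower by the widest margin, and Grin2d was higher. This contrast between sets defined by marker levels is a description, with no test. Gria1 ran from 94.0 through a median of 143 to 187 CPM, so the median was 3.31 times higher in the Drd1 libraries and no library of one set reached the other. Gria2 ran from 116 through 143 to 180 CPM, with a median 3.51 times higher in the Drd1 libraries and no overlap. Both AMPA genes therefore separated the sets completely.

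Gria3 ran from 67.2 through 78.3 to 92.6 CPM in the Th libraries, and its median was 2.07 times higher in the Drd1 libraries, with 1 library of each set inside the range of the other. Gria4 went the other way at the median, with 69.9 at the lowest, 115 at the median and 183 CPM at the highest, 1.25 times the Drd1 median, but the ranges overlapped broadly. The AMPA genes thus shared no common ratio between the sets. The log2 ratio of Gria4 to Gria2 was between -0.78 and 0.11 in the Th libraries and between -2.93 and -1.86 in the Drd1 libraries, and that of Gria3 to Gria2 was between -1.17 and -0.54 against -2.01 and -1.01. Only the first of these ratios separated the sets fully.

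Of the NMDA genes, Grin1 ran from 229 through 268 to 297 CPM in the Th libraries, just under the lowest Drd1 library at 301 CPM, and its median was 1.73 times higher in the Drd1 libraries. Grin2b ran from 54.9 through 67.03 to 86.1 CPM and its median was 4.18 times higher in the Drd1 libraries, with no overlap. Grin2a ran from 46.1 through 66.6 to 83.7 CPM, 2.14 times lower at the median, but all 11 values lay inside the wide range of the Drd1 libraries. Grin2d ran from 49.2 through 54.5 to 78.7 CPM, 5.88 times the Drd1 median, and every Th library exceeded every Drd1 library. Grin2c, from 50.8 through 60.5 to 64.8 CPM, lay inside the Drd1 range in all 11 libraries, and Grin3a, from 44.8 through 54.1 to 72.1 CPM, in 10 of 11.

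In all, 4 of the 10 subunits had Th libraries wholly below the Drd1 libraries, where 6.26% of 16213 genes did, and 1 of 10 was wholly above, where 6.33% did. Within the numeric label alone, 6 subunits were wholly lower (10.7% of genes), Gria3 and Grin2a being added, and Grin2d was wholly higher (9.97% of genes). The single Th library with an E21 label lay within the range of the 10 numeric ones for 8 subunits. It was above them for Grin2a, at 83.7 against at most 79.9 CPM, and just below them for Grin2c, at 50.8 against at least 51.2 CPM. The Th libraries also held more oligodendrocyte RNA: the sum over 8 oligodendrocyte markers had a median of 29871 CPM (24418 to 33830), against 16075 CPM (9614 to 37494) in the Drd1 libraries. The part of that difference in the subunit levels was not tested, and in bulk tissue fewer cells of a type and less RNA per cell cannot be told apart.

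The 1 library with neither marker had the highest Gria3 and Grin2a of all libraries in the table, at 263 and 226 CPM. Its Gria1 (395 CPM), Gria2 (499), Gria4 (119), Grin1 (504), Grin2b (363.4), Grin2c (59.2), Grin2d (16.5) and Grin3a (36.6 CPM) lay inside the range of the Drd1 libraries. Its summed cortical markers reached 2737 CPM, against 26.3 to 1486 CPM in the Drd1 libraries.

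Genes that work with the receptors were set side by side in the same way, again as a description. The counts here and in the following paragraphs stand beside 6.26% of all genes wholly lower in the Th libraries and 6.33% wholly higher. Of 20 postsynaptic scaffold genes, 12 were wholly lower in the Th libraries, 1 was wholly higher and 7 overlapped, and the median difference in mean log2(CPM + 1) was -1.35. The median of this difference was 0.05 over all 16213 genes and -0.88 over the 10 subunits. Dlg4, which encodes the scaffold PSD-95, had medians of 387 CPM in the Th and 1223 CPM in the Drd1 libraries. Shank3, a scaffold that links receptors to the cytoskeleton, had medians of 83.0 and 467 CPM. Grip2, which binds the tails of AMPA subunits, was the scaffold gene that was wholly higher, at 93.0 against 25.5 CPM.

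Of 11 kinase and phosphatase genes acting on the receptors, 6 were wholly lower, 1 was wholly higher and 4 overlapped. Camk2a, the kinase subunit central to synaptic potentiation, had medians of 134 CPM in the Th and 2248 CPM in the Drd1 libraries, 16.7 times apart, whereas Camk2g was wholly higher in the Th libraries, at 304 against 123 CPM. Ptpn5, the striatum-enriched phosphatase STEP, had medians of 73.95 and 626 CPM. Of 12 AMPA receptor auxiliary genes, 4 were wholly lower and 2 wholly higher. The auxiliary subunit Shisa6 was higher in the Th libraries by 7.03 times at the median (89.9 against 12.8 CPM), and Cacng2, which encodes stargazin, by 2.14 times (110 against 51.3 CPM). Shisa7 (27.7 against 183 CPM), Cnih3 (2.98 against 17.6), Cnih2 (102 against 270) and Cacng3 (37.9 against 115 CPM) were lower.

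Of 8 kainate and delta receptor genes, with the NMDA receptor gene Grin3b counted among them, 1 was wholly lower (Grik5) and 1 wholly higher (Grik4). Both kainate auxiliary genes, Neto1 and Neto2, were wholly lower. Among 6 genes of secreted organizers, coagonist synthesis and RNA editing, Srr, which makes the coagonist D-serine, was wholly lower (38.0 against 58.7 CPM) and Adarb2 wholly higher (74.6 against 38.7 CPM). A count of 1 in lists of 8 and 6 genes does not set them apart from the 6.26% and 6.33% of all genes. Adarb1, the enzyme that edits the Gria2 transcript, had medians of 185 and 252 CPM with overlapping ranges.

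**Figure D2:**
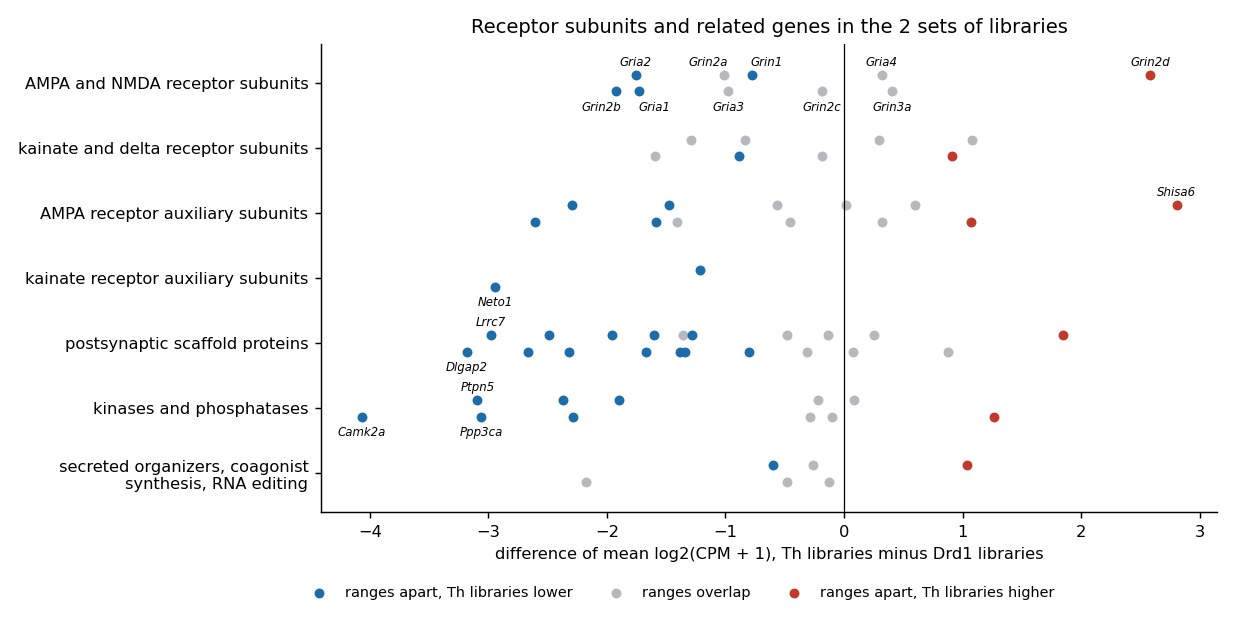
Difference in mean log2(CPM + 1) between Th and Drd1 libraries, 1 point per gene, coloured by whether the ranges of the sets overlap, for the subunits and the related gene groups. Grin2d and Shisa6 stand at the right, at 2.58 and 2.81, and Camk2a at the far left, at -4.07.

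Within the 147 Drd1 libraries the subunits differed in how much they varied between rats. The SD of log2(CPM + 1) was 0.48 for Grin2a and 0.46 for Grin2b, higher than for 94.5% and 93.5% of the 15327 genes tested. It was 0.31 for Grin2d, 0.28 for Gria2, 0.26 for Grin3a and Grin2c, 0.24 for Gria1, 0.23 for Gria3, 0.20 for Gria4 and 0.18 for Grin1. The median was 0.26 over the subunits and 0.24 over all genes tested. It was 0.20 over tested genes whose mean reached 10 CPM, as that of every subunit but Grin2d (9.32 CPM) did. All 10 subunits had a larger SD among E21 than among numeric libraries, by 1.24 times for Grin2d to 2.11 times for Grin2a, but so did 87.0% of all genes tested, with a median of 1.31 times. Grin2a ran from 45.4 through a median of 116 to 215 CPM in 76 E21 libraries and from 87.8 through 151 to 198 CPM in 56 numeric ones.

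Most subunits rose and fell together across these libraries. Of 45 pairs, 35 were positively and 3 negatively correlated in log2(CPM + 1) (permutation test, 2-sided, 100000 resamples, adjusted over the 45 pairs), and the median Pearson r was 0.55. Against the other genes compared whose mean reached 10 CPM, the median r of a subunit was between -0.05 (Grin2d) and 0.14 (Gria3). The share of all gene pairs past the threshold was not computed. The strongest pair was Gria1 with Gria2, which co-assemble in the common form of the AMPA receptor: r was 0.90 and Spearman's rho 0.87, each with an adjusted permutation p of at most 1.67e-05, and r was 0.88 without the 2 libraries farthest from the median of Gria1. The smallest raw p that 100000 resamples can give is 1e-05. Gria1 with Grin2b followed (r = 0.85, rho = 0.83), then Gria2 with Grin2b (0.84 and 0.82), Grin2a with Grin2b (0.83 and 0.76), Gria3 with Grin2a (0.80 and 0.72) and Gria2 with Gria4 (0.78 and 0.77). All genes of a library share its depth, dissection and scaling, so these pairs are not independent of each other.

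Grin2c stood apart in sign from most of the others. All 3 negative pairs held Grin2c, with Grin1 (r = -0.24, although rho was -0.16 at an adjusted permutation p of 0.0682), Gria2 (r = -0.21) and Gria4 (r = -0.19), and none of its 9 pairs was positive past the threshold. Grin2d was positively correlated past the threshold by r with 7 of its 9 partners, with r from 0.23 (Gria1) to 0.47 (Grin2a), and its pair with Gria2 did not pass (r = 0.13, adjusted permutation p = 0.123). By rank the pair of Grin2d with Gria1 did not pass either (rho = 0.15, adjusted permutation p = 0.073). Within the E21 label alone, 35 pairs were positive and 3 negative, with a median r of 0.64 and r = 0.94 for Gria1 with Gria2 and 0.88 for Grin2a with Grin2b. Within the numeric label alone, 19 were positive and 6 negative, all 6 with Grin2c, and the median r was 0.22, with 0.73 and 0.61 for the same pairs. The difference between the labels was not tested.

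A single component accounted for 26.8% of the variance over all genes in the Drd1 libraries, and Grin2b followed it with r = 0.88, Grin2a and Gria1 with 0.83 and Gria2 with 0.81. The score of ribosomal protein genes defined below ran against it (r = -0.74). The genes least like Grin2b were Atp5po and Cox4i1, of oxidative phosphorylation (r = -0.94 each), and those least like Grin2a were led by the ribosomal protein gene Rps4x (r = -0.91). The 100 genes least like Grin2b had a median RefSeq gene span of 6.28 kb and the 100 most like it of 153 kb, against 27.9 kb over the 10174 other genes compared. The corresponding medians were 6.12 and 165 kb for Grin2a and 5.57 and 155 kb for Gria2, but 24.5 and 38.6 kb for Grin2c.

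Depth, as the log2 of the library total, was more weakly related to the subunits, at most r = 0.29 for Grin2a (adjusted permutation p = 0.0043). A score of 72 cytosolic ribosomal protein genes, the mean of their z-scores and a list added after values were seen, fell as the subunits rose. Its r over the 147 libraries was -0.84 with Grin2b, -0.82 with Grin2a, -0.76 with Gria1, -0.74 with Grin1, -0.73 with Gria2, -0.72 with Gria3, -0.63 with Grin3a, -0.61 with Gria4 and -0.39 with Grin2d. Grin2c was the exception, at r = 0.23. All 10 values had an adjusted permutation p of at most 0.00445. In the E21 libraries r was -0.88 with Grin2b and -0.90 with Grin2a, and in the numeric ones -0.78 and -0.79. Grin2d did not pass by r in the numeric libraries (r = -0.26, adjusted permutation p = 0.0534) but did by rank (rho = -0.40, adjusted permutation p = 0.00291). The score left its widest gap with at least 10 libraries on each side between 0.59 and 0.84, with 116 libraries below and 31 above. Below it r was -0.65 with Grin2b and -0.62 with Grin2a, while Grin2c and Grin2d did not pass. Above it r was -0.58 with Grin2b and -0.40 with Grin2a, and without the 2 libraries farthest from the median these were -0.42 and -0.21. Of the 10 subunits only Gria1, Grin1 and Grin2b passed by r above the gap, and Grin2a did not (adjusted permutation p = 0.0526). By rank Grin3a passed there as well (rho = -0.43, adjusted permutation p = 0.0398). Summed over the 72 genes the level ran from 11566 through 15362 to 27606 CPM.

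With the score taken out of each gene by regression, 22 pairs of subunits were positive and 1 was negative past the threshold, and the median r fell from 0.55 to 0.18. Gria1 with Gria2 had r = 0.77, Gria1 with Grin2b 0.61, Gria3 with Grin2a 0.53 and Grin2a with Grin2b 0.43. Grin1 with Grin2a turned from 0.58 to -0.08, which did not pass the threshold. The single negative pair was Gria2 with Grin2d (r = -0.24). In the 116 libraries below the gap, 26 pairs were positive and 1 negative, with r = 0.82 for Gria1 with Gria2 and 0.64 for Grin2a with Grin2b. Taking out the cortical marker score in place of the ribosomal one left 36 positive and 3 negative pairs.

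**Figure D3:**
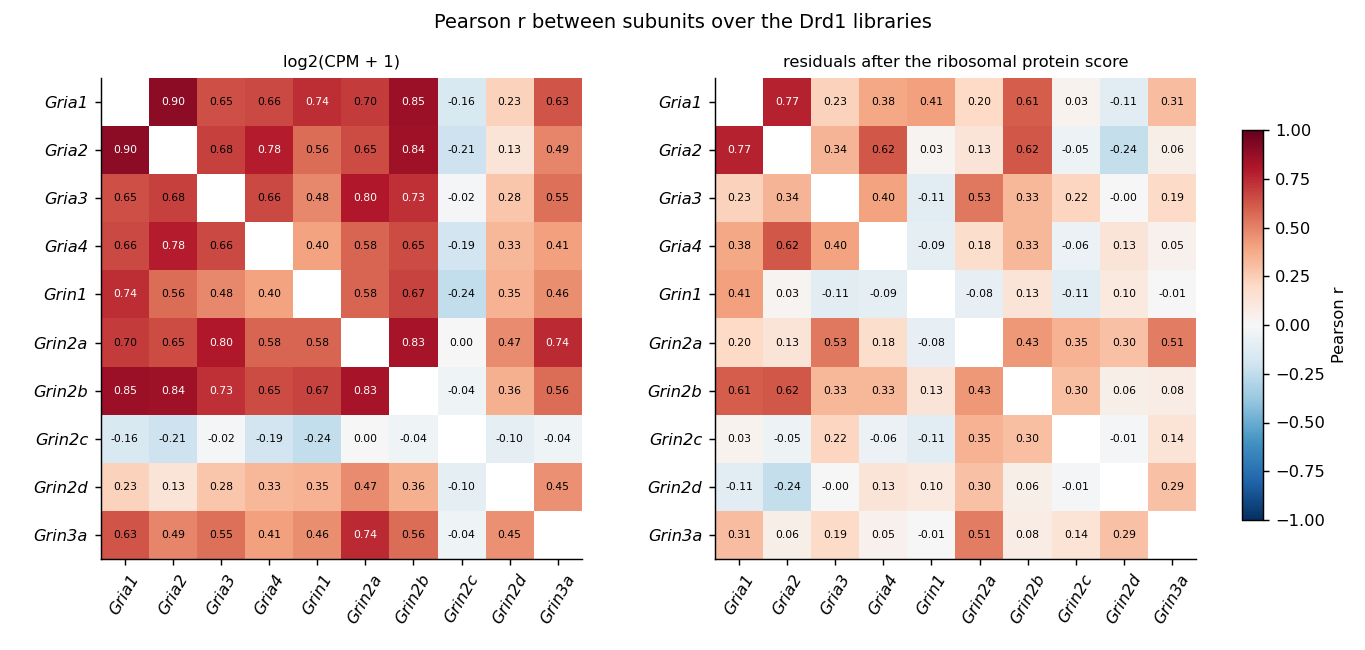
Pearson r between the subunits over the 147 Drd1 libraries, for log2(CPM + 1) on the left and after the ribosomal protein score was taken out on the right. Gria1 with Gria2 stands out in both, at 0.90 and 0.77, and Grin2c is pale against most subunits on the left.

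**Figure D4:**
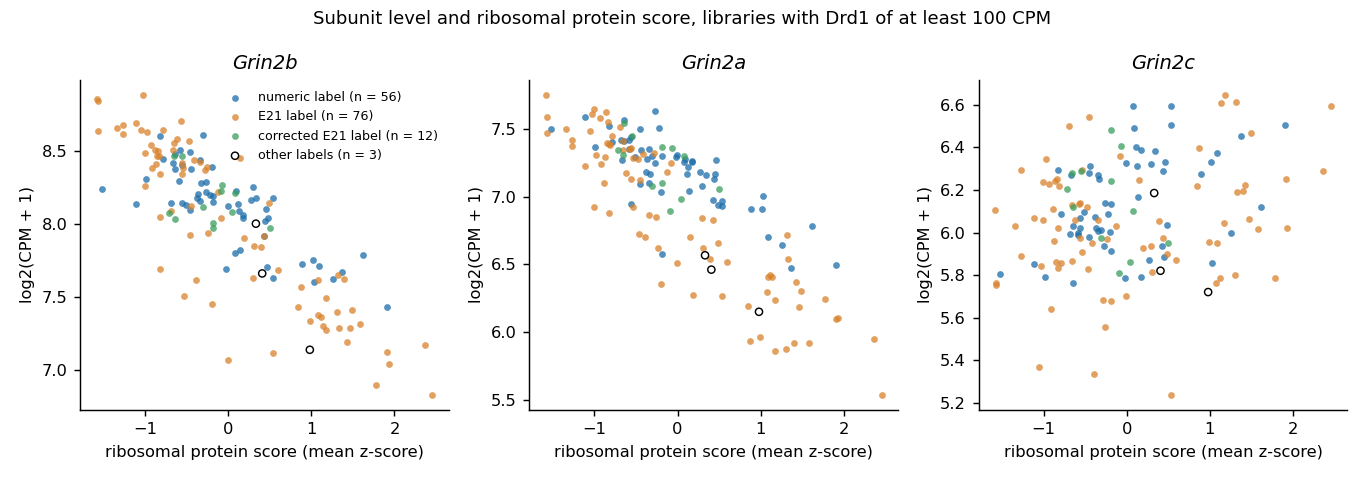
Level of Grin2b, Grin2a and Grin2c in log2(CPM + 1) against the ribosomal protein score (mean z-score over its genes), 1 point per Drd1 library and coloured by label. Grin2b and Grin2a fall along the score (r = -0.84 and -0.82), Grin2c rises slightly (r = 0.23), and 31 libraries lie above the gap at 0.59 to 0.84.

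The subunits also moved with cell type markers. Each was compared with 10 marker scores, and of the 100 relations 26 were positive and 43 negative past an adjusted permutation p of 0.05. The share of all genes related to these scores was not computed, so the counts in this paragraph do not set the subunits apart from other genes. The midbrain dopamine neuron score rested on only 2 of its 8 markers, Slc18a2 and Ret. The microglial score was negatively related to 9 of the 10 subunits, most to Gria1 (r = -0.70, rho = -0.67), and positively to Grin2c (r = 0.35). The astrocyte score was likewise negatively related to 9 subunits by r, most strongly to Grin1 (r = -0.75, rho = -0.72, and -0.74 without the 2 farthest libraries), and positively to Grin2c (r = 0.50). By rank it was not related past the threshold to Grin2d (r = -0.23, rho = -0.09, adjusted permutation p of rho = 0.333). Grin2c was also positively related to the endothelial score (r = 0.57, rho = 0.52). Over all 100 relations, 25 were positive and 39 negative in E21 libraries alone and 12 and 31 in numeric ones alone. Within the labels, Grin1 with astrocytes had r = -0.78 in both, Grin2c with endothelial cells 0.68 in E21 and 0.51 in numeric libraries, and Gria1 with microglia -0.77 and -0.60.

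Grin2d was most closely related to the GABA interneuron score (r = 0.68, rho = 0.61, and 0.64 without the 2 farthest libraries), at r = 0.76 in the E21 and 0.36 in the numeric libraries. Grin3a (r = 0.48) and Grin2a (r = 0.44) were also positively related to it, although the Grin2a relation did not pass within the numeric label (r = 0.27, adjusted permutation p = 0.0958). Gria1 was positively related to the cholinergic interneuron score (r = 0.67) and the medium spiny neuron score (r = 0.49) and negatively to the cortical glutamatergic score (r = -0.36). Grin2d (r = 0.36, rho = 0.39), Grin2a (r = 0.26) and Gria3 (r = 0.22) were positively related to the cortical score over all Drd1 libraries. Neither Grin2a nor Gria3 passed within the E21 label (r = 0.02 and -0.09). The values of Grin2d with the cortical score within each label are not given here.

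For each subunit the 2 genes with the highest r over the 147 libraries were taken, counting genes whose mean reached 10 CPM. Gria1 was most like Pnma8b (r = 0.95) and the sodium leak channel Nalcn (0.94), and Gria2 most like the metabotropic glutamate receptor Grm5 (0.95) and the actin regulator Abi2 (0.94). Gria3 was most like Pgm2l1 and the endocytic kinase Aak1 (0.90 each), and Gria4 most like Acsl4 (0.82) and Nap1l2 (0.81). The obligatory Grin1 was most like the neuronal chloride extruder Slc12a5 (0.87) and Sez6l2 (0.86). Grin2a was most like the sodium channel Scn8a (0.94) and Stxbp5l (0.94), and Grin2b most like the synaptic scaffold Tanc2 (0.95) and Arhgap32 (0.95). For Grin2d the closest were Mdga1 (0.73) and dynamin 1, Dnm1 (0.70), for Grin3a Adarb2 (0.78) and Peg3 (0.77), and for Grin2c Plekhm2 (0.67) and the plexin Plxnb1 (0.65), the lowest values of the 10 subunits.

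Between the label groups the subunits differed by less than the range within each group. Among Drd1 libraries, E21 libraries (n = 76) had lower Grin2a, Grin2d, Grin3a and Gria3 than numeric ones (n = 56). The log2 change of Grin2a was -0.33 (SE 0.078; limma, adjusted p = 0.00042), with medians of 116 and 151 CPM. Grin2d changed by -0.24 (SE 0.051; adjusted p = 0.00011 in limma), with medians of 8.46 and 9.86 CPM. Grin3a changed by -0.19 (medians of 38.6 and 43.6 CPM) and Gria3 by -0.14 (medians of 155 and 166 CPM). Thus 4 of 10 subunits were lower, where 26.6% of 15327 genes were, and 0 of 10 were higher, where 12.3% were, and no subunit was higher at an unadjusted p under 0.05 in limma. Over all genes 31.6% of calls were higher, but 49.9% with median-of-ratios size factors and 55.1% with quantile normalization.

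These differences depended on which libraries were used. In the 116 libraries below the gap of the ribosomal protein score, 2 subunits were lower, Grin2c (-0.15) and Grin2d (-0.16), where 18% of genes were, and Grin1 was higher (0.08), where 7.01% were. Grin2a was at -0.12 there (limma, adjusted p = 0.13). The libraries above the gap were 22 of the 76 with an E21 label and 8 of the 56 with a numeric one. With the ribosomal score as a covariate 7 subunits were lower (30.6% of genes) and 0 higher (14.8%). Across these settings and every other one that tested it, Grin2d kept an adjusted p under 0.05 in limma and a log2 change between -0.58 and -0.16. The -0.58 end came with all libraries, which add the Th libraries, 10 of them numeric. Every Th library exceeded every Drd1 library for Grin2d, so that setting does not bear on the labels within the Drd1 libraries.

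Cortical markers moved with the same comparison. Of 8 of them, 7 were lower in E21 libraries, with a median log2 change of -0.90, and their summed level had a median of 149 CPM (26.3 to 1486) in E21 and 360 CPM (42.5 to 1314) in numeric libraries. With the cortical score as a covariate 8 subunits were lower (31.4% of genes), all but Grin1 and Grin2c, and 0 were higher (11.9%). With all libraries, Th libraries included, 3 were lower (30.9%), namely Grin2d, Grin3a and Gria4, and 2 were higher (17.9%), namely Gria2 (0.22) and Grin1 (0.11). Of 12 medium spiny neuron markers 8 were higher in E21 libraries, and of 7 GABA interneuron markers 4 were lower. The part of these cell types in the subunit changes was not tested beyond these fits.

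Corrected E21 libraries (n = 12) were compared with the same E21 libraries, so the comparisons share that group. Gria3 was higher by 0.25 (SE 0.066; limma, adjusted p = 0.0052), with medians of 173 and 155 CPM. Grin2a was higher by 0.38 (SE 0.14; adjusted p = 0.049 in limma), with medians of 157 and 116 CPM. This call was lost with median-of-ratios size factors, quantile normalization, log2 total as a covariate and no filter (limma, adjusted p of 0.0705, 0.0544, 0.0763 and 0.0887). Thus 2 of 10 subunits were higher, where 9.38% of genes were, and 0 lower, where 3.25% were, with 0 lower at an unadjusted p under 0.05 in limma. All 12 corrected libraries lay below the gap of the ribosomal score, and against the 54 E21 libraries below it no subunit passed in limma in either direction (7.86% of genes were higher and 3.18% lower), with Gria3 at 0.13, Grin2a at 0.10 and Gria2 at -0.17 (adjusted p = 0.083). At an unadjusted p under 0.05 in that fit 2 subunits were higher and 1 was lower.

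The same 7 cortical markers were higher in the corrected libraries, with a median log2 change of 1.53 and a summed level of 637 CPM at the median (47.97 to 1010). With the cortical score as a covariate 2 subunits were higher (12.1% of genes) and 0 lower (2.81%), Gria3 at 0.22 and Gria1 at 0.20, while Grin2a was at 0.31 (adjusted p = 0.12 in limma). With the ribosomal score Gria3 and Grin2a were again the 2 higher subunits (10.9% of genes) with 0 lower (4.16%). With all libraries 0 were higher (4.2% of genes) and 0 lower (0.869%) in limma, and at an unadjusted p under 0.05 the counts were 2 and 0.

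**Figure D5:**
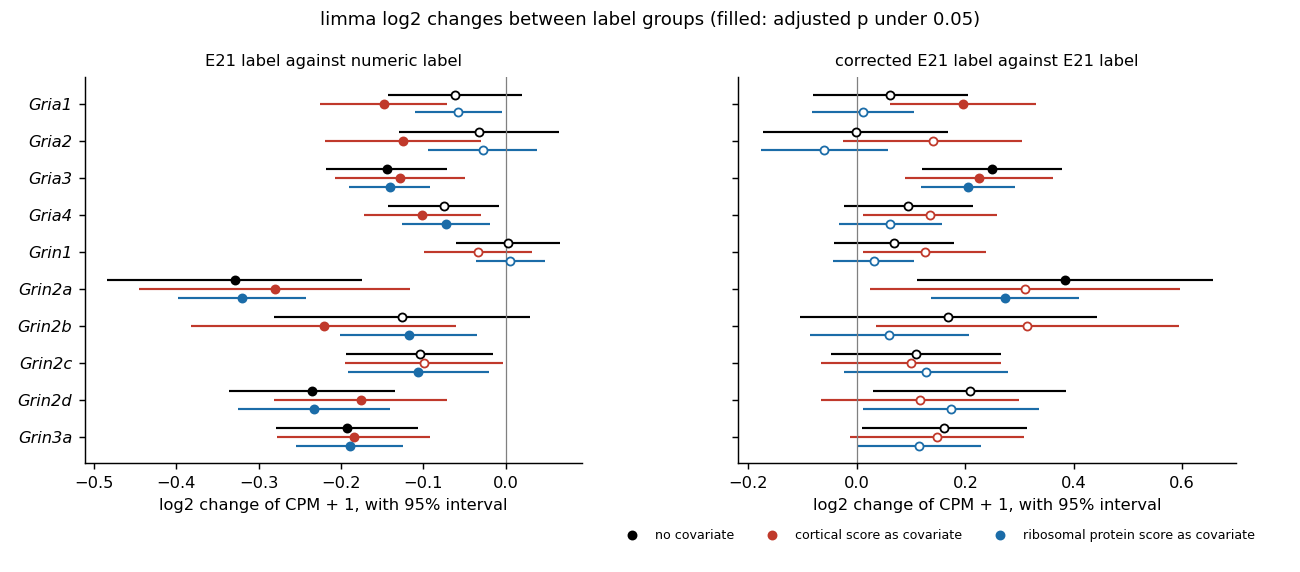
Log2 change of each subunit with its 95% interval from limma, for E21 against numeric libraries (left) and corrected E21 against E21 libraries (right), without a covariate and with the cortical or the ribosomal protein score. Grin2a and Grin2d are to the left of 0 under all 3 fits on the left side, and Gria3 to the right of 0 under all 3 on the right side.

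Ratios of 2 subunits within a library do not depend on the scaling. The log2 ratio of Grin2a to Grin2b was -1.14 ± 0.28 (SD, n = 76) in E21 and -0.94 ± 0.24 (SD, n = 56) in numeric libraries, a difference of -0.21 (permutation test, 2-sided, adjusted p = 0.00066 over 12 tests). In corrected E21 libraries it was -0.93 ± 0.23 (SD, n = 12), 0.22 above the E21 libraries (adjusted permutation p = 0.0405). The ratio of Gria3 to Gria2 was -1.72 ± 0.19 in E21 and -1.61 ± 0.20 in numeric libraries, a difference of -0.11 (adjusted permutation p = 0.00476), and -1.47 ± 0.24 in corrected ones, 0.25 higher than in E21 libraries (adjusted permutation p = 0.00066). The ratios of Gria1 and Gria4 to Gria2, Grin2b to Grin1 and Grin1 to Gria2 passed in neither comparison.

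In the 116 libraries below the gap, Grin2a to Grin2b differed by -0.19 between E21 and numeric libraries (permutation test, adjusted p = 0.00184) and Gria3 to Gria2 by -0.17 (adjusted permutation p = 0.00012). For corrected against E21 libraries the differences there were 0.21 (adjusted permutation p = 0.0336) and 0.30 (adjusted permutation p = 0.00012). Gria4 to Gria2 passed as well below the gap, at -0.10 and 0.16 (adjusted permutation p = 0.011 each), and Gria1 to Gria2 passed for corrected against E21 libraries, at 0.09 (adjusted permutation p = 0.0336). With all libraries the corrected against E21 difference in Grin2a to Grin2b had an adjusted permutation p of 0.122.

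Genes of the kainate receptor and of the secreted pentraxins were among the related genes that changed. The counts below stand beside 26.6% of all genes lower and 12.3% higher in E21 libraries, and those shares were not tested against each other. In E21 against numeric libraries 5 of 8 kainate and delta genes were lower and 0 higher, with Grik3 at -0.73 and Grik1 at -0.37. Of 6 genes of secreted organizers, coagonist synthesis and RNA editing 5 were lower: Nptx1 (-0.69), Nptxr (-0.66) and Nptx2 (-0.28), which cluster AMPA receptors at synapses, and Adarb1 (-0.24) and Adarb2 (-0.16). Of 12 AMPA auxiliary genes 6 were lower, among them Shisa6 (-0.53), Cacng2 (-0.24) and Gsg1l (-0.16), and 3 were higher, among them Cacng3 (0.17). Of 20 scaffold genes 8 were lower and 0 higher (2 at an unadjusted p under 0.05 in limma), led by Dlgap1 (-0.36), Homer2 (-0.30), Shank1 (-0.30) and Grip1 (-0.19), and Dlg4 was at 0.0032 (limma, adjusted p = 0.93). Of 11 kinase and phosphatase genes 1 was higher and 4 were lower, among them Camk2d (-0.32), Camk2g (-0.21) and Fyn (-0.06). Most cortical markers were also lower in E21 libraries. The library with neither Drd1 nor Th at 100 CPM had the highest summed cortical markers. In it, Nptx1, Nptxr, Dlgap1, Homer2, Shank1, Cacng2 and Camk2g exceeded every Drd1 library. The other genes named as lower lay inside the Drd1 range. No fit with the cortical score is given for these genes, and the part of the cortical signal in their changes was not tested.

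Below the gap of the ribosomal score, where 18% of all genes were lower and 7.01% higher, the counts were 2 lower and 1 higher for kainate and delta genes, 4 lower for the secreted group, 5 lower and 3 higher for AMPA auxiliary genes, 3 lower and 1 higher for scaffolds and 4 lower and 3 higher for kinases and phosphatases. In corrected E21 against E21 libraries Nptx1 (1.13), Nptxr (0.97), Nptx2 (0.51), Grik3 (0.91), Grik1 (0.48), Shisa6 (0.83), Cnih3 (0.51), Cacng2 (0.29), Gsg1l (0.24), Dlgap1 (0.50), Grip1 (0.29), Camk2d (0.32) and Camk2g (0.27) were higher. That made 3 of 8 kainate and delta genes, 4 of 12 AMPA auxiliary genes, 2 of 20 scaffolds, 2 of 11 kinases and phosphatases and 3 of 6 of the secreted group, with 0 lower in each at an adjusted p of 0.05 in limma. Over all genes 9.38% were higher and 3.25% lower in this comparison, and the scaffold count was near the first share. The counts were not tested against these shares. Most cortical markers were higher too, and the part of the cortical signal in these changes was not tested. At an unadjusted p under 0.05, 1 AMPA auxiliary gene, 1 scaffold gene and 1 kinase gene were lower. The kainate auxiliary genes Neto1 and Neto2 passed in neither comparison.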

How the data were processed

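PolyA RNA of nucleus accumbens core was measured in each rat, and the submitters' processing notes name kallisto 0.48. The deposited table holds log2(expected count + 1) per gene with no scaling between libraries, as read from its values, and its start sites match RefSeq GRCr8 gene starts for 38278 symbols. These log2 values were turned back into expected counts and scaled to CPM over each library's total (14.6 to 61.2 in units of 1000000). The sources used here do not give the library preparation, the annotation or read filters.

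Libraries were grouped by identifier form. limma 3.58.1 (R 4.3.3, trend, 2-sided) was fitted to log2(CPM + 1) of the 147 Drd1 libraries for the 15327 genes whose mean reached 1 CPM, with Benjamini-Hochberg adjustment and a threshold of 0.05. A fold on this scale understates changes of low genes. Correlations and ratios used permutation tests with 100000 resamples (Python 3.11.15, scipy 1.17.1). The limma step was tested on simulated data.

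The members and gene lists were chosen with earlier results of these data known. The text names all members, the 2 genes most like each, and up to 4 genes of each related list by p, plus genes that define a role. Genes named between the Th and Drd1 libraries were chosen after their values were seen. Alternatives covered scaling, pseudocount, filter, covariates and libraries, and those with the ribosomal protein score were chosen after seeing the data. A few genes of these lists are not reported here.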

Additional observations from a re-analysis of the deposited data

How the results depend on the processing

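For E21 against numeric libraries, 5964 genes were called, against 3315 with log2 total as a covariate and 3841 below the ribosomal score gap. Subunits called lower numbered 8 with the cortical score, 9 with cortical, oligodendrocyte and astrocyte scores, 7 with the ribosomal score and 2 below the gap. Of all genes, 31.4% were lower with the cortical score, 30.6% with the ribosomal score and 18% below the gap. The share of all genes lower with the 3 scores is not given here, so the count of 9 has no background beside it. Subunits called higher numbered 2 with all libraries and 1 below the gap. Gria2 turned from -0.03 to 0.22 with all libraries, which add the Th libraries, 10 of them numeric. For corrected E21 against E21 libraries, 1935 genes were called, against 782 with all libraries and 983 with the 3 scores. Subunits called higher numbered 0 with all libraries, the 3 scores or below the gap, and 1 with log2 total, median-of-ratios, quantile normalization or no filter, where Grin2a missed the threshold (limma, adjusted p of 0.0763, 0.0705, 0.0544 and 0.0887). For these libraries 74.3% of calls were higher, and 55.3% and 51.3% with median-of-ratios and quantile normalization. Ratios past the threshold numbered 1 with all libraries and 4 below the gap. Subunit pairs numbered 19 positive and 6 negative in numeric libraries alone, 22 and 1 after the ribosomal score was taken out, and 1 negative below the gap, and positive marker relations numbered 12 in numeric libraries alone. Grin1 with Grin2a turned to r = -0.079 after the ribosomal score was taken out, and Gria3 with the cortical score to r = -0.089 in E21 libraries alone. The cause of these changes was not tested. Of the values for single genes and pairs, 309 stayed on their side of the threshold, a count that takes in changes of sign where neither value passed. Another 31 fell short of it, 22 newly passed it and 3 reversed with a value past it. A filter of 10 CPM leaves Grin2d untested. No paired analysis was possible because the labels give no replicate numbers that pair libraries across groups.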
